A study of Mus musculus with 2 samples.

Results

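Ass1, Asl, Gatm, Gamt, Arg1, Arg2, Oat, Odc1 and Sat1 encode enzymes that make or consume arginine, creatine and the polyamines. They were chosen by gene name, with earlier results of these data known. The 9 genes are compared here among 16698 genes with a usable probe. Their transcripts were measured in kidney RNA of male CD-1 mice, an outbred stock, aged 7 weeks when feeding began, which received AIN-93G, a purified rodent diet, for 1 week with 0.2% adenine by weight (2 g per kg). Adenine forms crystals in the tubules and is used to model chronic kidney disease. The adenine group ate this diet alone, and the HMPA group ate it with 2% by weight of the phenolic acid HMPA, 3-(4-hydroxy-3-methoxyphenyl)propionic acid. Both groups received adenine, and no kidney from a diet without it was analysed here, so a ratio does not show what adenine itself changed.

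Each of 2 dual-colour Agilent arrays held both conditions. Array 1 carried the adenine sample in Cy3 and the HMPA sample in Cy5, and array 2 carried them the other way round. The titles speak of 5 mice and an age of 12 weeks and do not say whether RNA was pooled, and nothing in the labels names separate animals for the arrays. The pair was therefore read as 1 RNA sample per condition measured with both dye orientations, which leaves no replicate of animals and no p-value. Errors written with ± give how far either array lay from the mean of both, in log2 units, and cover the measurement alone.

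Arginine is made from citrulline in the proximal tubule, where argininosuccinate synthase (Ass1) and argininosuccinate lyase (Asl) release it for the rest of the body. Glycine amidinotransferase (Gatm) and guanidinoacetate methyltransferase (Gamt) turn arginine and glycine into creatine. Arginases (Arg1, Arg2) split arginine into urea and ornithine, which ornithine aminotransferase (Oat) sends toward proline and glutamate and ornithine decarboxylase (Odc1) sends toward putrescine, the first polyamine. Spermidine/spermine acetyltransferase (Sat1) starts polyamine breakdown.

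The 9 genes had 13 probes of 60 bases, 5 genes with 1 probe and 4 with 2. Sequences are printed for probes of called genes, as the array files give them, with positions on mouse build mm9. For Odc1 it is the dimmer of its probes, and the probes of Gatm and the brightest of Odc1 are given by position alone. Both Ass1 probes are shown because they overlap: the capitals mark the 20 bases they share, so they are not separate parts of the transcript. The Arg1 and Arg2 probes are shown because both arginases were lower. Between probes of different members, the longest identical run over 74 pairs was 9 bases.
Ass1, brightest probe, chr2:31374279-31375918, plus strand: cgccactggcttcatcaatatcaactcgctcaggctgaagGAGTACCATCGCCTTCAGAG
Ass1, other probe, chr2:31375899-31375957, plus strand: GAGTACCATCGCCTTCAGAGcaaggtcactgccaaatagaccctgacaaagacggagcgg
Asl, chr5:130487964-130488549, minus strand: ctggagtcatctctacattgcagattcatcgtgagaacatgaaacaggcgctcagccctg
Arg1, chr10:24636194-24636253, minus strand: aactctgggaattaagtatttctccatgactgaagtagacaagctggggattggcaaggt
Arg2, chr12:80252972-80253031, plus strand: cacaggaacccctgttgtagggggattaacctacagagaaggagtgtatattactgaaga
Odc1, dimmer probe, chr12:17554799-17554858, plus strand: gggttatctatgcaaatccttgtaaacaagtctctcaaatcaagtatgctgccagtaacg
The interval of the brightest Ass1 probe spans 1640 bases and that of Asl 586 bases, so each joins separated pieces of the genome. RefSeq also lists the brightest Ass1 probe's target under Gm5424, a transcribed pseudogene on chromosome 10, and the other Ass1 probe under no second gene. The remaining probes used lie at chr2:122420814-122420873 (Gatm), chr10:79720991-79721047 (Gamt), chr7:139749726-139749785 (Oat), chr12:17557755-17557813 (Odc1, brightest) and on chromosome X (Sat1). No annotation on mm9 was used, so exons and UTRs are not assigned.

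With HMPA, transcripts for arginine synthesis (Ass1, Asl), for the first step of creatine synthesis (Gatm) and for polyamine synthesis (Odc1) were higher, between 2.58-fold and 7.75-fold. Both arginases were lower, Arg2 2.23-fold and Arg1, near background with HMPA, by a log2 ratio between −4.71 and −1.64 depending on the processing. Arg1 was kept through the adenine channels alone, so a lower reading of it was favoured by the filter. Gamt, Oat and Sat1 did not reach the size rule, which asks for a mean ratio of 2-fold or more and 1.5-fold or more on each array, with the same sign. Thus 4 of the 9 genes were called higher and 2 lower, while over all 16698 genes 6.64% were called higher and 7.72% lower. The median log2 ratio of the 9 genes was 0.71, against −0.04 over all genes. Because the genes were chosen with earlier results of these data known, these contrasts with all genes describe the list and test nothing. Turned to cancel the condition and leave the dyes, the same arrays gave 0 called genes (0.0%).

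**Figure D1:**
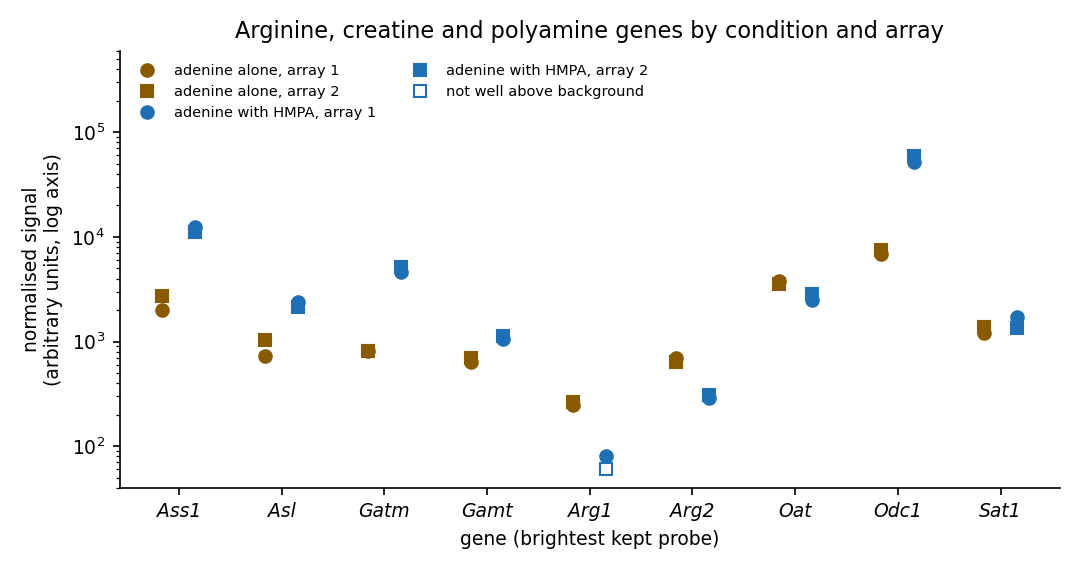
Normalised signal (arbitrary units, log axis) of the brightest kept probe of each gene, for adenine alone (brown) and adenine with HMPA (blue), on array 1 (circles) and array 2 (squares); an open symbol was not well above background. Both HMPA points lie above both adenine points for Ass1, Asl, Gatm, Gamt and Odc1 and below them for Arg1, Arg2 and Oat. Those of Sat1 overlap. The 2 points of a condition were read as 1 RNA sample, and how many of all genes separate in this way was not counted. Heights of different genes are not comparable.

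Of the arginine-making pair, Ass1 joins citrulline to aspartate. Its brightest probe gave normalised signals of 1987 and 2699 with adenine alone (arrays 1 and 2) and 12528 and 11235 with HMPA. The log2 ratios were 2.66 and 2.06 (mean 2.36 ± 0.30, 5.12-fold). The overlapping probe read 2014 and 1909 with adenine and 6115 and 10076 with HMPA. Its ratios of 1.60 and 2.40 (2.00 ± 0.40) ran in the opposite order over the arrays. The means of the 2 probes, 2.36 and 2.00, lay closer together than their values on array 1, 2.66 and 1.60. The probe that lists no pseudogene thus gave a 4.00-fold difference.

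Asl cleaves argininosuccinate into arginine and fumarate. Its signals were 734 and 1037 with adenine and 2388 and 2115 with HMPA. The arrays differed more than for most genes, with log2 ratios of 1.70 and 1.03 (1.37 ± 0.34, 2.58-fold) where the median distance over all genes was 0.11. The lower array still put Asl just above 2-fold.

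Gatm, the mitochondrial enzyme that moves the amidino group of arginine onto glycine, read 814 and 815 with adenine and 4653 and 5148 with HMPA. These are nearly the same value on both arrays within each condition. Its log2 ratios were 2.51 and 2.66 (2.59 ± 0.07, 6.01-fold), rank 111 from the highest of 16698 genes.

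Gamt methylates the product of Gatm to creatine. It read 642 and 699 with adenine and 1061 and 1138 with HMPA. The mean ratio of 0.71 ± 0.01 (1.64-fold) stayed under 2-fold. Its probe was printed 10 times per array, which shows the error of single spots: the 10 ratios ran from 0.52 to 1.05 on array 1 (SD 0.18) and from 0.33 to 1.00 on array 2 (SD 0.20). Every repeat spot was thus above 0, and none reached the ratio of Gatm.

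Arg1 is the cytosolic arginase of liver, also made by alternatively activated macrophages. Its scanned signals were 268 and 264 with adenine, and 27.7 and 39.5 with HMPA over local backgrounds of 22 and 23. With HMPA the spot was well above background on 1 of 2 arrays, so no single fold is well defined. The probe was kept through the adenine channels alone, and a lower reading was thus favoured by the filter. After normalisation the signals were 249 and 265 against 80 and 60, with log2 ratios of −1.64 and −2.14 (−1.89 ± 0.25). So close to background, the size of this difference depended on the correction: −2.51 without background correction, −3.06 with an offset of 10, and −4.71 from Feature Extraction's ratio. The direction was the same in each.

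Arg2 is the mitochondrial arginase and the main one of the kidney. It read 693 and 632 with adenine and 288 and 305 with HMPA, well above background in every channel. The log2 ratios were −1.27 and −1.05 (−1.16 ± 0.11, 2.23-fold lower).

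Oat, the mitochondrial enzyme that commits ornithine to proline and glutamate, read 3753 and 3578 with adenine and 2468 and 2861 with HMPA. Both HMPA values were lower, by a log2 ratio of −0.46 ± 0.14 (1.38-fold), which is short of the rule. A second Oat probe was near background and was not kept.

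Odc1 is the rate-limiting enzyme of polyamine synthesis and in male mouse kidney responds to androgens. Its brightest probe read 6836 and 7450 with adenine and 51443 and 59500 with HMPA. The arrays gave nearly the same ratio, 2.91 and 3.00 (2.95 ± 0.04, 7.75-fold), the highest of the 9 genes and rank 52 of all 16698. The dimmer probe, whose sequence is given above, read 288 and 383 against 1844 and 1511. Its ratio of 2.33 ± 0.35 (5.03-fold) was lower than that of the brightest probe but of the same direction, and both probes met the rule.

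Sat1 adds the acetyl group that marks polyamines for oxidation or export. It read 1204 and 1385 with adenine and 1706 and 1337 with HMPA, so the groups overlapped. The log2 ratios were 0.50 and −0.05 (0.23 ± 0.28), and the other probe gave −0.42 and 0.29 (−0.07 ± 0.36). The sign differed between the arrays for each probe, and no difference of Sat1 could be told from the spread of the measurement.

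**Figure D2:**
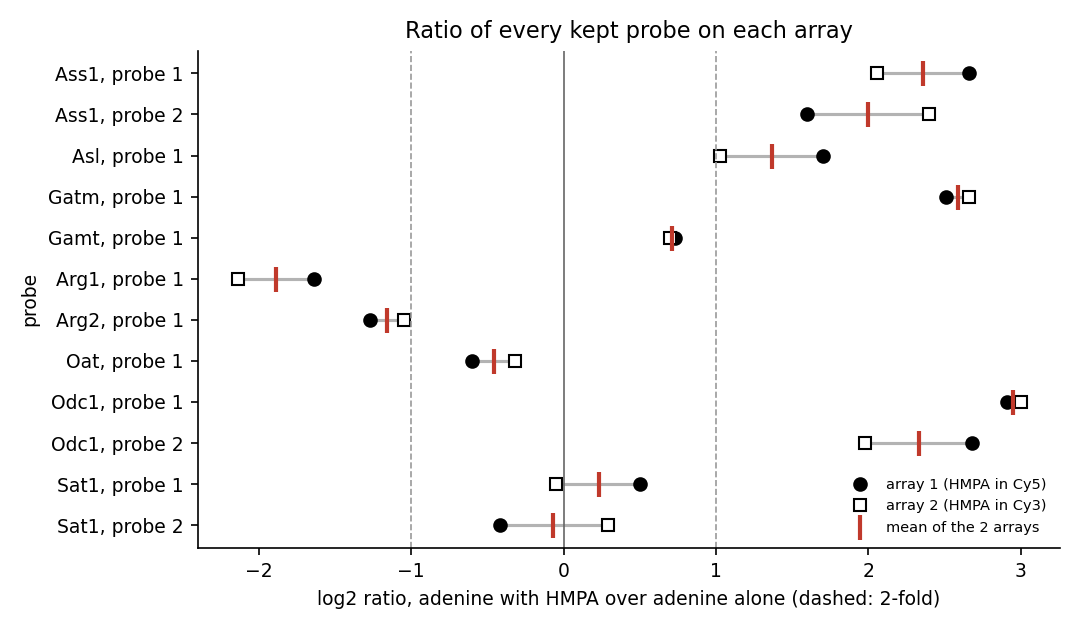
Log2 ratio of HMPA over adenine alone for the 12 kept probes, on array 1 (filled circles), array 2 (open squares) and as their mean (red bars); dashed lines mark 2-fold. Both probes of Ass1 and of Odc1 lie right of the 2-fold line on both arrays, Arg1 and Arg2 left of it, and the probes of Sat1 lie across 0.

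Other genes of these pathways were read from lists by role, 54 genes of which 46 had a usable probe. Of these 46, 14 were higher, 6 lower and 26 not called, with a median log2 ratio of 0.24. Over all 16698 genes, 6.64% were called higher and 7.72% lower, with a median of −0.04. The same call was kept under every alternative processing by 13 of the 20 called genes, and the exceptions are named with their values.

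For creatine transport and use, 1 of 4 measured genes was higher and 1 lower. Slc16a12, a creatine exporter, was at 1.16 ± 0.43 and fell short of the rule with array 1 alone (0.73) and with median centring (0.91). Ckb, the cytosolic brain-type creatine kinase, was lower (−1.25 ± 0.10). Its other kept probe was at −0.94, and the mean of its probes, −1.10, still met the rule. Slc6a8, the creatine importer, was not called at 0.41 ± 0.0039.

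For the urea cycle, nitric oxide and other uses of arginine, 2 of 9 measured genes were higher and 2 lower. Agxt2 and the Ddah genes did not all go in the same direction. Agxt2, a mitochondrial aminotransferase that acts on dimethylarginine, was higher (1.93 ± 0.08; 2.74 with an offset of 10 and 3.32 from Feature Extraction's ratio), and Ddah2, of the family that hydrolyses dimethylarginine, was lower (−1.84 ± 0.04). Its paralog Ddah1 was at 1.03 ± 0.11, just inside the rule, and outside it with array 1 alone (0.91) and with median centring (0.77). Prmt1, which methylates arginine in proteins, was lower (−1.47 ± 0.34). The endothelial nitric oxide synthase Nos3 (−0.16 ± 0.02) and the agmatine hydrolase Agmat (0.55 ± 0.21) were not called. Nags, which makes the activator of the urea cycle's first enzyme, was not well above background with HMPA on either array. It was kept through the adenine channels alone, so a lower reading was favoured by the filter. Its bound of at least 1.15-fold lower did not meet the rule, and Feature Extraction's ratio called it lower (−1.46). The probes of Cps1, Otc and Nos2 were not kept.

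Of 6 measured genes between ornithine and proline, 4 were higher and 0 lower, and the median was 1.47. Prodh (1.96 ± 0.30) and Prodh2 (1.76 ± 0.15) oxidise proline and hydroxyproline, and Aldh4a1 (1.86 ± 0.24) carries both products on toward glutamate and its hydroxylated form. These 3 break the amino acids down. The other kept probe of Aldh4a1 was at 0.85, and the mean of its probes, 1.36, still met the rule. Pycr3, a reductase on the way from ornithine to proline, was at 1.18 ± 0.14 and fell short with median centring (0.88) and with the mean of its probes (0.93). Aldh18a1, which belongs to proline synthesis, was not called (−0.63 ± 0.21); it was called lower with an offset of 10 (−1.15) and from Feature Extraction's ratio (−1.86).

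Of 16 measured genes for polyamine synthesis, breakdown and control, 2 were higher and 2 lower, and the median was −0.08. Beside Odc1, the synthesis genes did not move as 1 group: spermine synthase (Sms) was at 1.46 ± 0.18 and spermidine synthase (Srm) at −0.24 ± 0.24. The 3 probes of Sms ran from 0.26 to 1.46, and their mean of 0.79 missed the rule. Sat2, a relative of Sat1, was at 1.04 ± 0.08 and fell short with array 2 alone (0.96) and with median centring (0.75). Paox, which oxidises acetylated polyamines (−1.17 ± 0.15), and Atp13a2, a lysosomal polyamine exporter (−1.13 ± 0.04), were lower. Odc1 is also controlled after transcription by antizyme and its inhibitor: antizyme 1 (Oaz1) was at 0.03 ± 0.31 and antizyme inhibitor 1 (Azin1) at 0.77 ± 0.23, neither called. Azin1 was called higher on array 1 alone (1.00).

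For arginine and ornithine transport, 5 of 11 measured genes were higher and 1 lower, and the median was 0.64. Slc7a9 (1.71 ± 0.02) and Slc3a1 (1.68 ± 0.18) form the apical transporter that takes up cystine and the basic amino acids, and both were higher. Slc7a7, the light chain of the basolateral exporter, was higher (1.43 ± 0.03). Of the mitochondrial carriers, Slc25a13, which exports the aspartate that Ass1 uses, was higher (1.46 ± 0.10), and the ornithine carrier Slc25a15 was at 1.15 ± 0.09. Slc25a15 fell short with median centring (0.88) and was at 1.72 with an offset of 10 and 2.12 from Feature Extraction's ratio. The cationic amino acid transporter Slc7a1 was lower by its brightest probe (−1.53 ± 0.18), but its other kept probe was at −0.0058. The mean over probes, −0.77, missed the rule. Its relatives Slc7a2 and Slc7a3 were not well above background with HMPA and were kept through the adenine channels alone. A lower reading was thus favoured by the filter. Their bounds were at least 1.30-fold and 1.08-fold lower, and neither met the rule. The log2 ratio of Slc7a3, −0.11, was no larger than the median array distance over all genes, 0.11. From Feature Extraction's ratio both were called lower (−3.17 and −1.18), and Slc7a2 also with an offset of 10 (−1.07).

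The arrays measured whole kidney, in which fewer cells of a type and less RNA per cell cannot be told apart. Markers of the tubule segment that makes arginine and creatine were also higher with HMPA. Of 12 proximal tubule markers, 11 were called higher (median 2.42), and their summed normalised signal was 28449 and 39494 with adenine against 224747 and 221513 with HMPA. The called ones include Lrp2, the endocytic receptor megalin (2.73 ± 0.07, or 2.01 as the mean of its probes), and Kap, the androgen-regulated kidney protein (3.90 ± 0.11). All 6 markers of the convoluted part (median 1.59), a list that includes Slc7a7 and shares Slc5a2, Slc5a12 and Slc34a1 with the 12, and all 6 of the straight part (median 2.31) were higher. With median centring these counts were 10 of 12, 4 of 6 and 6 of 6. The convoluted part had 5 of 6 on array 1 alone, and the straight part had 5 of 6 on array 2 alone. The 12 markers ranged from 0.69 (Aqp1, the one not called) to 3.97. Gatm, Ass1 and Asl at 2.59, 2.36 and 1.37 lay within this range, as did Odc1 (2.95) and Gamt (0.71). Below it lay Sat1 (0.23), Oat (−0.46), Arg2 (−1.16) and Arg1 (−1.89). Outside the proximal tubule, 3 of 6 markers of the thick limb and distal tubule and 4 of 6 of the collecting duct were higher. These counts ran from 2 to 4 and from 3 to 5 over the alternatives: Slc12a1 was at 1.22 but 0.66 as the mean of its probes, and Aqp2 at 1.09 but 0.77 with median centring and 0.91 on array 1 alone. The part of tubule content in these ratios was not tested.

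Both arginases and the macrophage markers were lower with HMPA, and a link between them was not tested. The 10 macrophage markers were all lower (median −2.10), or 9 with the mean over probes, from a summed signal of 87870 and 83842 to 14344 and 13019. Of 5 markers of alternatively activated macrophages, 4 were lower (median −1.91), among them Chil3, a chitinase-like protein (−2.91 ± 0.08; −3.56 with an offset of 10 and −3.89 from Feature Extraction's ratio), and the mannose receptor Mrc1 (−2.34 ± 0.26). Mrc1 is in both lists, so their counts are not separate. Their summed signal was 4652 and 4660 with adenine and 1245 and 1095 with HMPA. Hepatocyte markers were dim: 4 of 6 were measured, with summed signals of 420 and 457 against 406 and 426, Ahsg was not kept and Serpina1a was not found by name. Their ratios ran from −0.74 to 1.05, with Alb (albumin) at 1.05 ± 0.13 the called one. Alb and Ttr were kept through the HMPA channels alone, so a higher reading was favoured by the filter. So near background, Alb ran from 0.92 (median centring, and array 1 alone, not called) to 4.26 (Feature Extraction's ratio, which also called Ttr, transthyretin, at 1.41), and 1 of the 6 hepatocyte markers was above background in all 4 channels. None of 5 endothelial markers met the rule (7825 and 7259 against 5952 and 6081). The part of macrophage content in the Arg1 and Arg2 ratios was not tested.

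RefSeq promoters (GRCm38.p6, 250 bases before to 50 after the start) were at hand for 6 of the 9 genes, Arg1, Arg2 and Asl being outside the table. They were searched on both strands for the TATA box (TATAAA), the E-box (CACGTG), the cAMP response element and nuclear receptor elements. The Ass1 promoter held an E-box from −36 to −31, as did 2349 of 32851 promoters (7.15%). It is shown because Ass1 was the one matched member, with the E-box in capitals.
Ass1 promoter, chr2:31470174-31470269, plus strand: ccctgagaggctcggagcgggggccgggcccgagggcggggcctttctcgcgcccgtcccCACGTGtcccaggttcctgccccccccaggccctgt
No other of these motifs was found in the 6 windows, Odc1 and Gatm included. The TATA box was in 13.6% of all promoters and the cAMP response element in 1.79%. The nuclear receptor elements, of 13 and 14 letters, were in 0.0396% and 0.0487%. At such shares their absence from 6 windows says nothing about these genes. A match is a string of letters, not a measured site.

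**Figure D3:**
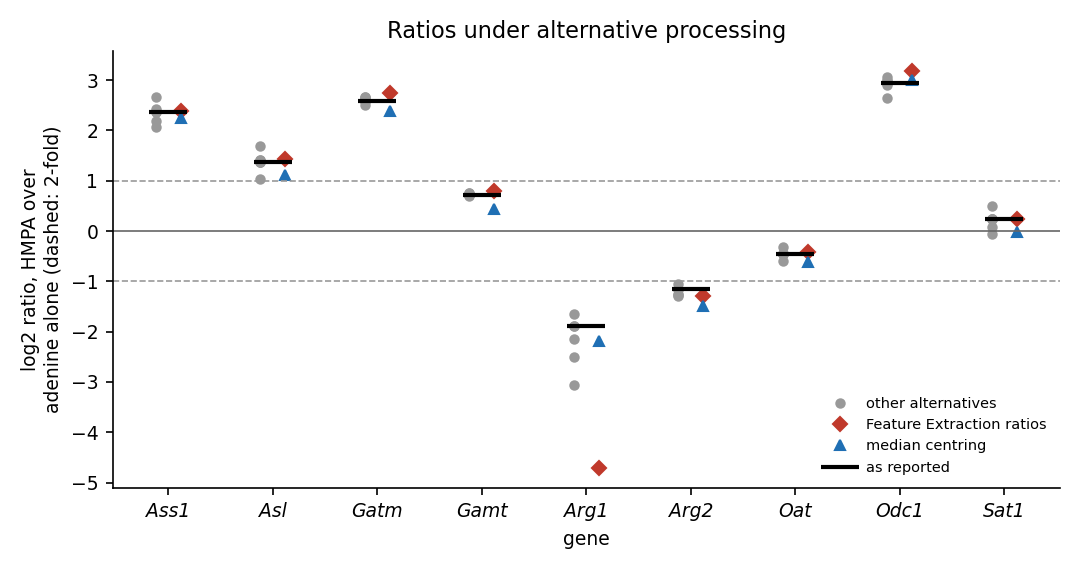
Log2 ratio of HMPA over adenine alone for each gene as reported (black bars) and under alternative processing: Feature Extraction ratios (red diamonds), median centring (blue triangles) and all others (grey circles); dashed lines mark 2-fold. Arg1 spreads from −4.71 to −1.64, and Sat1 lies on both sides of 0.

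Across the alternatives, the called members stayed on their side of 2-fold: Gatm from 2.38 to 2.74, Ass1 from 2.06 to 2.66, Asl from 1.03 to 1.70, Odc1 from 2.64 to 3.19 and Arg2 from −1.49 to −1.05. Arg1 did so wherever it was measured and dropped out where all 4 channels had to be above background. Gamt ran from 0.43 to 0.80 and Oat from −0.62 to −0.32 without reaching it.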

How the data were processed

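Kidney RNA of both diets was hybridised on 2 dual-colour arrays with swapped dyes. The authors deposited scanner output of Feature Extraction, version 12.2.0.7 per the file headers and 9.5 per the submitters' processing notes. Its signal columns are intensity per spot, as scanned, per the file headers. The ratio column the authors deposited is log10 of red over green after background subtraction and dye normalisation, and their deposited series table repeats that log10 ratio within 0.00498 and 0.00499, with both arrays as red over green.

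From the intensities, log2 ratios were computed with limma 3.58.1 in R 4.3.3: normexp background correction (offset 50), loess within each array with control and unreliable spots at weight 0, and Aquantile for the signal of each channel. Ratios were turned to HMPA over adenine, and spots of a probe averaged. A probe was kept if well above background in 1 condition on both arrays (25138 of 41174 probes, 12 of 13 for the 9 genes), and a gene took its brightest kept probe. Of the 16698 genes, 15254 were above background in all 4 channels, as were 8 of the 9 (all but Arg1). Spots well above background made up 57.9% to 67.9% per channel, and the number of arrays limits the precision. A gene dim with HMPA on both arrays got a bound ("at least"), against the higher of its own signal and the lowest signal well above background.

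Calls follow size and not a test, since 1 sample per condition allows none. Probes were named through RefSeq by accession (21374), symbol (1932) or older symbol (8), and 1824 kept the file's name; Pycr3 is Pycrl there. Named genes were all members, every other pathway gene that met the rule or was a bound, 8 pathway genes in any case, and up to 2 per marker list; Aldh18a1, the genes that marker lists share and those without a kept probe were added after their values were seen. The members and lists were chosen with earlier results of these data known. The processing was tested on simulated data. Tables and figures used Python 3.11.15, numpy 2.4.6, pandas 2.3.3 and matplotlib 3.10.9. Alternatives were another offset, no background correction, median centring, Feature Extraction ratios, other probe filters, the mean over probes, and each array alone. A gene of the lists that is counted but not named is not reported here.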

Additional observations from a re-analysis of the deposited data

How the results depend on the processing

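Of 80 values of the 9 genes under alternative processing, 67 stayed within the spread of the arrays (1 SD), 13 moved further and 0 reversed a call. Many of the 67 could not have moved. The value of either array alone lies within that SD by construction. The other probe filters left the probe of each member they kept unchanged, and averaging changes nothing for a gene with 1 kept probe. The 67 therefore do not measure stability. In 78 the call and sign were those reported, and the other 2 were Sat1 with median centring (−0.02) and on array 2 alone (−0.05). The members' median of 0.71 became 0.75 with an offset of 10 and also without background correction, 0.43 with median centring, 0.80 with Feature Extraction ratios and 1.04 where all 4 channels had to be above background, which removed Arg1 and left 1 lower member. With 1 array alone it was 0.70 and 0.73. Of the other pathway genes, 9 were higher with median centring and 11 lower with Feature Extraction ratios. Over all genes, median centring moved the median from −0.04 to −0.22 and gave 749 higher and 1973 lower genes (27.5% higher, against 46.2%), and Feature Extraction ratios gave 2043 and 2461. The causes were not tested. No paired analysis was possible because there are no replicate samples to pair; each ratio is itself taken within an array. Signal over background limits Arg1, Nags, Slc7a2, Slc7a3 and Alb among others, and the spread between animals was not measured.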
